A study of Mus with 9 samples.

Results

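The 10 genes described here carry the acetylcholine signal of the mouse brain. They comprise 4 muscarinic receptors (Chrm1, Chrm2, Chrm3, Chrm4), 3 subunits of the brain nicotinic receptors (Chrna4, Chrna7, Chrnb2), the synthesizing enzyme (Chat), the choline transporter (Slc5a7) and the degrading enzyme (Ache). They were taken by gene symbol from the array tables, which name 21154 genes on probe sets of a single gene, and were found on 11 of 22206 probe sets, because Ache has 2. Their hippocampal RNA was compared between SAMR1 mice, SAMP8 mice and SAMP8 mice given trigonelline (TG), a plant alkaloid, with 3 arrays in each group and 9 in all. SAMP8 is a senescence-accelerated mouse strain with early memory decline, and SAMR1 is the senescence-resistant strain used as its normally aging control. The study describes its SAMP8 mice as male and 16 weeks old, an age given ahead of the dosing and testing. The age when the tissue was taken was not stated. SAMR1 was assigned the same 16 weeks here, though the study states no age for that strain. Oral TG was given daily for 30 days at 5 mg/kg and then through the behavioral testing, and both untreated groups received an equal volume of vehicle. All groups had therefore been trained in a water maze before the tissue was taken, and the 2 strains differ in their whole genetic background and not at a single locus.

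Acetylcholine reaches the hippocampus mostly from axons whose cell bodies lie in the medial septum and the diagonal band, so the RNA of the synthesizing enzyme and of the choline transporter is made largely outside the tissue. Many of the receptors, by contrast, are made by hippocampal cells themselves. Muscarinic receptors act through G proteins, M1 and M3 through Gq and M2 and M4 through Gi. Nicotinic receptors are cation channels, of which the α4β2 type and the α7 type prevail in the brain. Cholinergic transmission in this tissue is known for its part in attention and in the encoding of new memories.

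The deposited tables gave a single average of log2 signal per probe set and group. The values of single arrays were not analysed here, so no difference below has a replicate error or a test. Differences are given as log2 values of 1 group average minus another. A difference was counted as large when it passed 1.5-fold, which is 0.585 on the log2 scale. The averages carry 2 decimals, so that a difference can be off by up to 0.01. Each difference was read against all probe sets on the arrays. SAMP8 and SAMR1 differed by more than 1.5-fold at 11.1% of the probe sets, of which 5.0% were higher and 6.08% were lower in SAMP8. TG-treated SAMP8 and untreated SAMP8 differed that much at 8.21%, with 4.48% higher and 3.74% lower after TG. TG-treated SAMP8 and SAMR1 did so at 10.5%, with 5.62% higher and 4.83% lower in the TG-treated mice. Both main comparisons use the same SAMP8 average, and TG-treated SAMP8 against SAMR1 is the sum of the other two. In bulk tissue, fewer cells of a type and less RNA per cell cannot be told apart.

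None of the 11 probe sets passed 1.5-fold in any of the 3 comparisons. Across the arrays, 20.6% of probe sets passed it between at least 1 pair of groups. Between the strains the 10 genes had a median difference of 0.12 in log2 signal and a range from -0.41 to 0.24, while the median over all probe sets was 0.00. After TG the median was -0.06 and the range ran from -0.44 to 0.22, against a median of 0.01 over all probe sets. The median size lay below that of the arrays as a whole. The median absolute difference of the 11 probe sets was 0.17 between the strains, 0.16 after TG and 0.12 between TG-treated SAMP8 and SAMR1, and that of all probe sets was 0.21, 0.20 and 0.21. A limit of 1.2-fold was passed by 40.8% of all probe sets between the strains, 38.2% after TG and 40.5% between TG-treated SAMP8 and SAMR1. Of the 11 it was passed by 1 (Slc5a7), by 2 (Chrna7 and the second Ache probe set) and by 3 (Chrm3, Chrna4 and the second Ache probe set), respectively.

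**Figure D1:**
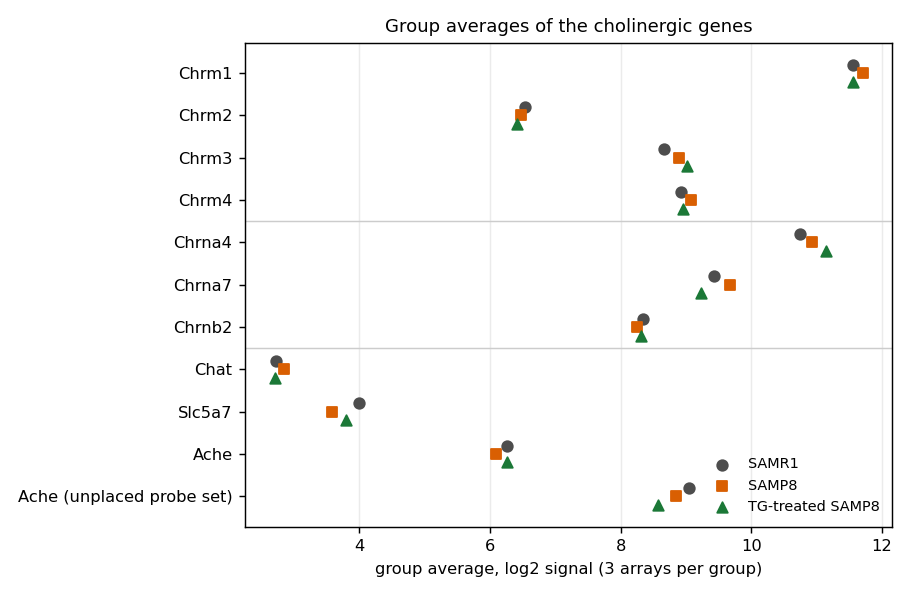
The log2 signal of each probe set (horizontal axis) is shown as the average of the 3 arrays of SAMR1 (circles), SAMP8 (squares) and TG-treated SAMP8 (triangles), with no error because single arrays were not analysed. The 3 averages of a gene lie close together everywhere. The widest gaps are those of the unplaced Ache probe set, Chrna7, Slc5a7 and Chrna4, and levels of different probe sets cannot be compared with each other.

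The muscarinic receptors were read first. Chrm1 encodes the M1 receptor, the principal muscarinic receptor of hippocampal pyramidal cells (chr19:8664005-8683606, GRCm38). Its average log2 signal was 11.56 in SAMR1, 11.71 in untreated SAMP8 and 11.55 after TG. The SAMP8 average was the highest of the 3, by 0.15 over SAMR1 and by 0.16 over the treated mice. A difference of that size was found at 63.2% of all probe sets between the strains and at 58.7% after TG. Chrm3, the other Gq-coupled receptor (chr13:9875486-10361062), had averages of 8.67, 8.89 and 9.02 in the same order. Here the TG-treated group was the highest, 0.35 above SAMR1 in log2 signal or 1.27-fold, a size reached by 29.8% of probe sets.

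The Gi-coupled pair followed. Chrm4, the M4 receptor (chr2:91922189-91929835), averaged 8.92 in SAMR1, 9.07 in untreated SAMP8 and 8.95 after TG. The difference was 0.15 between the strains and -0.12 after TG. Chrm2, the M2 receptor found on cholinergic terminals and on interneurons (chr6:36387991-36528638), averaged 6.53, 6.47 and 6.41. It was 0.06 lower at each step. At least 83.2% of all probe sets differed by as much in either of these comparisons. Over the 4 receptors the median difference was 0.15 between the strains and -0.09 after TG, with 3 of 4 averages higher in SAMP8 than in SAMR1 and 1 of 4 higher after TG.

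Among the nicotinic subunits, Chrna7 had the largest difference of the 10 genes after TG, while between the strains that of Slc5a7 was larger. It encodes the α7 subunit, which forms calcium-permeable channels by itself (chr7:63098692-63212526). Its average was 9.43 in SAMR1, 9.67 in untreated SAMP8 and 9.23 after TG. The SAMP8 average was the highest, 1.18-fold above SAMR1 and 1.36-fold above the TG-treated mice, and the treated average lay 0.20 below SAMR1 in log2 signal. Of all probe sets, 45.7% differed by as much between the strains and 17.6% differed by as much after TG. Among probe sets of similar signal the share after TG was 20.5%.

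Chrna4 and Chrnb2 encode the α4 and β2 subunits, which assemble into the high-affinity nicotine receptor of the brain. Chrna4 (chr2:181022311-181043579) averaged 10.75 in SAMR1, 10.93 in untreated SAMP8 and 11.15 after TG, so that the treated group was the highest. The treated average exceeded that of SAMR1 by 0.40 in log2 signal or 1.32-fold, as large a difference as 24.3% of all probe sets had. Chrnb2 (chr3:89753448-89764632) averaged 8.34, 8.25 and 8.31. It differed by 0.09 or less in each comparison. The values of the 2 partner subunits thus stood in different orders over the groups: SAMP8 lay between the other groups for Chrna4 and below them for Chrnb2.

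Choline acetyltransferase, encoded by Chat, makes acetylcholine from choline and acetyl-CoA (chr14:32408203-32465909). Its average log2 signal was 2.72 in SAMR1, 2.84 in untreated SAMP8 and 2.70 after TG. The lowest average of any probe set was 2.42 in SAMR1, 2.39 in untreated SAMP8 and 2.46 after TG, so Chat lay at most 0.45 above the bottom of the scale in each group. Its differences of 0.12 between the strains and -0.14 after TG were thus read at the lower end of what the arrays measure. Slc5a7, the high-affinity choline transporter that supplies the enzyme with choline (chr17:54273590-54299038), averaged 3.99, 3.58 and 3.80. SAMP8 was the lowest group, 0.41 below SAMR1 in log2 signal or 1.33-fold, and 0.22 below the TG-treated mice. The strain difference was as large at 23.6% of all probe sets and at 16.6% of those in the same signal class. Chat and Slc5a7 were the only 2 of the 11 probe sets in the lowest of 4 classes of equal size by mean signal, which ended at a log2 signal of 4.4.

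Ache encodes acetylcholinesterase, which ends the signal by splitting acetylcholine (chr5:137288247-137294466). Its 2 probe sets disagreed. The one whose identifier places it on chromosome 5 averaged 6.26 in SAMR1, 6.09 in untreated SAMP8 and 6.26 after TG. The second, whose identifier marks it as unmapped, averaged 9.04, 8.85 and 8.57. Both were lower in SAMP8 than in SAMR1, by 0.17 and 0.19 in log2 signal. After TG the placed probe set was 0.17 higher and the unplaced one was 0.28 lower. The unplaced one showed the largest difference of the 11 between TG-treated SAMP8 and SAMR1, at -0.47 or 1.39-fold, where the placed one was at 0.00. No direction can therefore be given for Ache after TG.

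**Figure D2:**
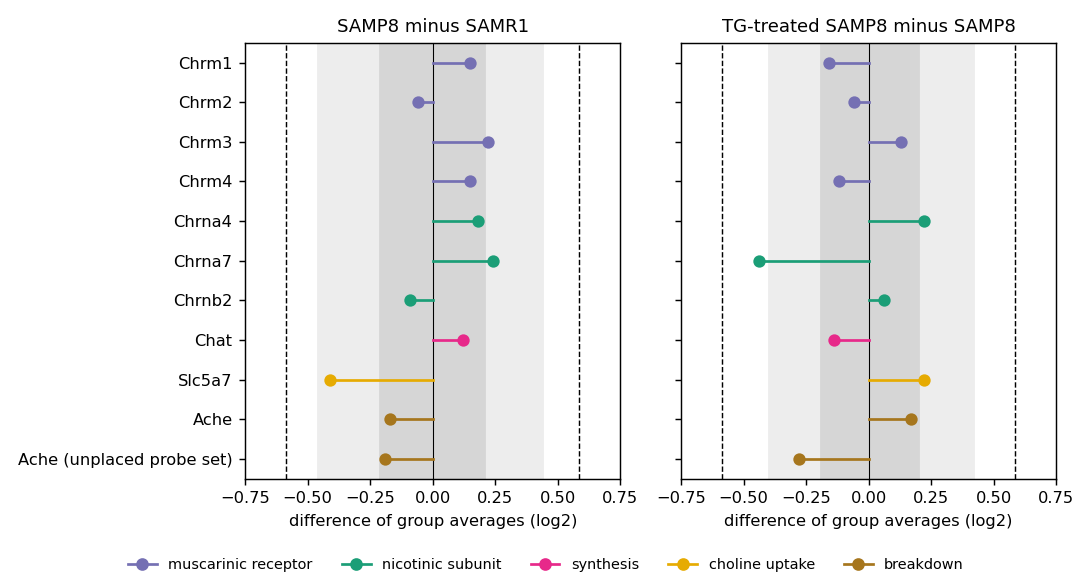
Difference of 2 group averages in log2 signal (horizontal axis) for each probe set, coloured by role, between the strains (left) and after TG (right). The dark and light bands span the 25th to 75th and the 10th to 90th percentile of all 22206 probe sets, and the dashed lines mark 1.5-fold. Every point lies inside the dashed lines, and Chrna7 after TG (-0.44) is the only one outside a light band.

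The strain differences depended on how bright a probe set was, and this touches most of the 11. In the lower 2 of the 4 signal classes the median difference of SAMP8 from SAMR1 was -0.08 in log2 signal, in the next it was 0.06 and in the brightest it was 0.12. After TG the medians ran the other way, at 0.04, 0.05, -0.02 and -0.06. Of the 11 probe sets, 6 lay in the brightest class: Chrm1, Chrm3, Chrm4, Chrna4, Chrna7 and the unplaced Ache. Relative to the median of that class, the strain difference was 0.03 for Chrm1 and Chrm4, 0.10 for Chrm3, 0.06 for Chrna4 and 0.12 for Chrna7. When the 3 group averages were quantile normalized to each other, Chrm1 went from 0.15 to -0.01 and the median of the 11 went from 0.12 to -0.01, a value that the rounding does not tell from 0. Centring each group average on its median gave 0.17, so the median strain difference of the set depends on the scaling. The brighter genes with negative values lay further from 0 on the quantile normalized scale. The unplaced Ache probe set went from -0.19 to -0.32 and Chrnb2 from -0.09 to -0.21, while Slc5a7 went from -0.41 to -0.31. After TG, quantile normalization left Chrna7 at -0.38 and Chrna4 at 0.29.

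**Figure D3:**
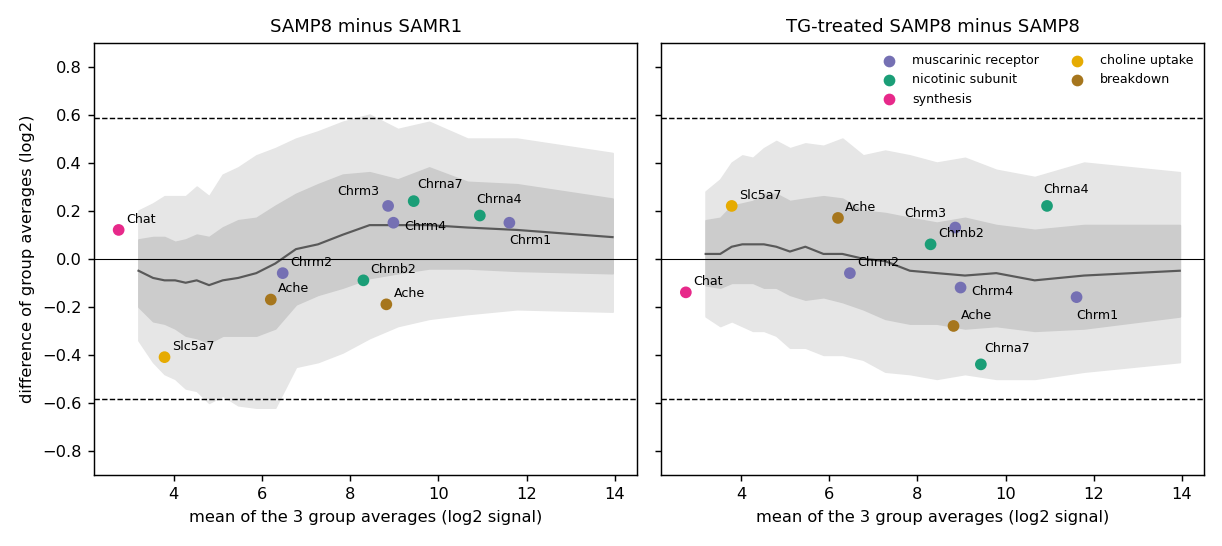
Difference of 2 group averages in log2 signal (vertical axis) against the mean of the 3 averages (horizontal axis) for the 11 probe sets. The line is the running median of all probe sets, the bands span their 25th to 75th and 10th to 90th percentile, and the dashed lines mark 1.5-fold. Between the strains the median lies below 0 among dim probe sets and above 0 among bright ones, where most of the receptors lie close to it.

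The other genes of the cholinergic pathway were taken as 5 lists of 50 genes in all, each with 1 probe set. Between the strains, 2 of the 50 were more than 1.5-fold higher and 2 were more than 1.5-fold lower in SAMP8, with a median of 0.01 in log2 signal. After TG, 3 were higher and 1 was lower, again with a median of 0.01. Between TG-treated SAMP8 and SAMR1, 7 were higher and 2 were lower in the treated mice. Out of the 50, 14 passed the limit between at least 1 pair of groups and those reported here are named below. Read against the shares of all probe sets given above, 8.0% of the list passed between the strains, 8.0% after TG and 18.0% between TG-treated SAMP8 and SAMR1.

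The remaining receptor subunits (14 genes) include those of muscle and of autonomic ganglia, and their signal was low, with a median of 4.46 in SAMR1. Their median difference was -0.17 between the strains and 0.07 after TG. Chrna9, a subunit of cochlear hair cells, averaged 5.33 in SAMR1, 4.72 in untreated SAMP8 and 5.43 after TG. SAMP8 was thus the lowest group, by 1.53-fold against SAMR1 and by 1.64-fold against the treated mice. Chrnb4, the ganglionic and habenular β4 subunit, averaged 4.46, 3.87 and 3.98, which put SAMR1 highest. Its difference of -0.59 between the strains lies within the rounding of the limit, as do the 1.51-fold differences given below for Chrnb1, Tmem35 and Kcnq3. The muscle subunits Chrnb1 (3.87, 3.98 and 4.46) and Chrne (4.55, 4.59 and 5.15) were highest after TG, by 1.51-fold and 1.52-fold over SAMR1. Chrnd, also a muscle subunit, was lowest after TG, with averages of 3.88, 3.54 and 3.18. The study reported Chrna6, Chrna9, Chrnb1 and Chrne as raised by TG on these same arrays, so their values here are no independent evidence of a direction. It used a test and a lower limit of 1.1-fold. Chrna6, a subunit of dopaminergic and visual pathways, averaged 5.78, 5.49 and 5.78. After TG it was 1.22-fold above untreated SAMP8, Chrnb1 was 1.39-fold and Chrne was 1.47-fold above. These lie past the limit of the study and below the 1.5-fold used here. Between the strains, 2 of the 14 subunits (14.3%, against 11.1% of all probe sets) passed the limit as deposited. The count was 0 when each average was centred on its median or quantile normalized. Chrna9 kept its order of groups on the quantile normalized scale, at -0.50 between the strains and 0.65 after TG.

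Chrna3, Chrna5 and Chrnb4 form a cluster on chromosome 9, in which Chrna5 overlaps Chrna3 and Chrnb4 lies 1.59 kb further on. Chrna3 averaged 4.93 in SAMR1, 4.41 in untreated SAMP8 and 4.61 after TG, and Chrna5 averaged 5.54, 5.72 and 5.49. Chrna3 and Chrnb4 were lower in SAMP8 than in SAMR1 and Chrna5 was higher.

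None of 5 further genes for the handling of acetylcholine passed the limit. Slc18a3, which loads acetylcholine into vesicles and lies inside the Chat gene (chr14:32462437-32464850), averaged 3.23 in SAMR1, 2.73 in untreated SAMP8 and 2.93 after TG. It was lower in SAMP8 by 0.50 in log2 signal, where Chat was higher by 0.12, and both lay near the bottom of the scale. Bche, the second cholinesterase, averaged 5.33, 5.60 and 5.42. Prima1, which anchors acetylcholinesterase in the membrane of neurons, averaged 6.59, 6.36 and 6.54.

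Of 8 genes for assembly and modulation of nicotinic receptors, 3 passed the limit between at least 1 pair of groups, as 20.6% of all probe sets did. Lynx1, a membrane-bound Ly6 protein that damps nicotinic receptors, averaged 11.60 in SAMR1, 11.91 in untreated SAMP8 and 12.32 after TG. The treated group was the highest, 1.65-fold above SAMR1. Lypd6, another Ly6 protein, averaged 7.89, 7.98 and 8.56, which was 1.59-fold above SAMR1 after TG. Tmem35, the array's symbol for the α7 chaperone NACHO, averaged 7.94, 8.53 and 8.26 and was 1.51-fold higher in SAMP8 than in SAMR1. Chrna7, its client, was 1.18-fold higher in the same comparison. Ric3, the other chaperone, differed by no more than 1.04-fold in any comparison.

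The muscarinic signalling list (16 genes) held the largest differences of the pathway between TG-treated SAMP8 and SAMR1, those of Rgs4 and Itpr1. Rgs4, which shortens signals through Gq and Gi, averaged 12.12 in SAMR1, 12.66 in untreated SAMP8 and 13.34 after TG. The treated average was 1.60-fold above that of SAMP8 and 2.33-fold above that of SAMR1. Itpr1, the calcium-release channel downstream of Gq, averaged 13.09, 13.65 and 13.93, a difference of 0.84 in log2 signal between TG-treated SAMP8 and SAMR1. Rgs4 and Itpr1 both stood highest in the treated group.

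The potassium channels on which muscarinic receptors act differed in direction after TG. Kcnq3, a subunit of the M-current channel that M1 receptors shut off, averaged 10.75, 10.72 and 10.16. It was lowest in the treated group, by 1.47-fold against untreated SAMP8 and by 1.51-fold against SAMR1. Kcnj3, Kcnj6 and Kcnj9 form the channels that Gi-coupled receptors open. Kcnj9 averaged 7.69, 7.70 and 8.32 and was 0.62 higher after TG, while Kcnj6, at 10.32, 10.82 and 10.40, was 0.42 lower. After quantile normalization the values after TG were -0.50 for Kcnq3, 0.66 for Kcnj9 and -0.35 for Kcnj6. The median of the list was 0.12 between the strains and -0.07 after TG, close to the medians of the brightest signal class, in which 14 of the 16 lay.

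**Figure D4:**
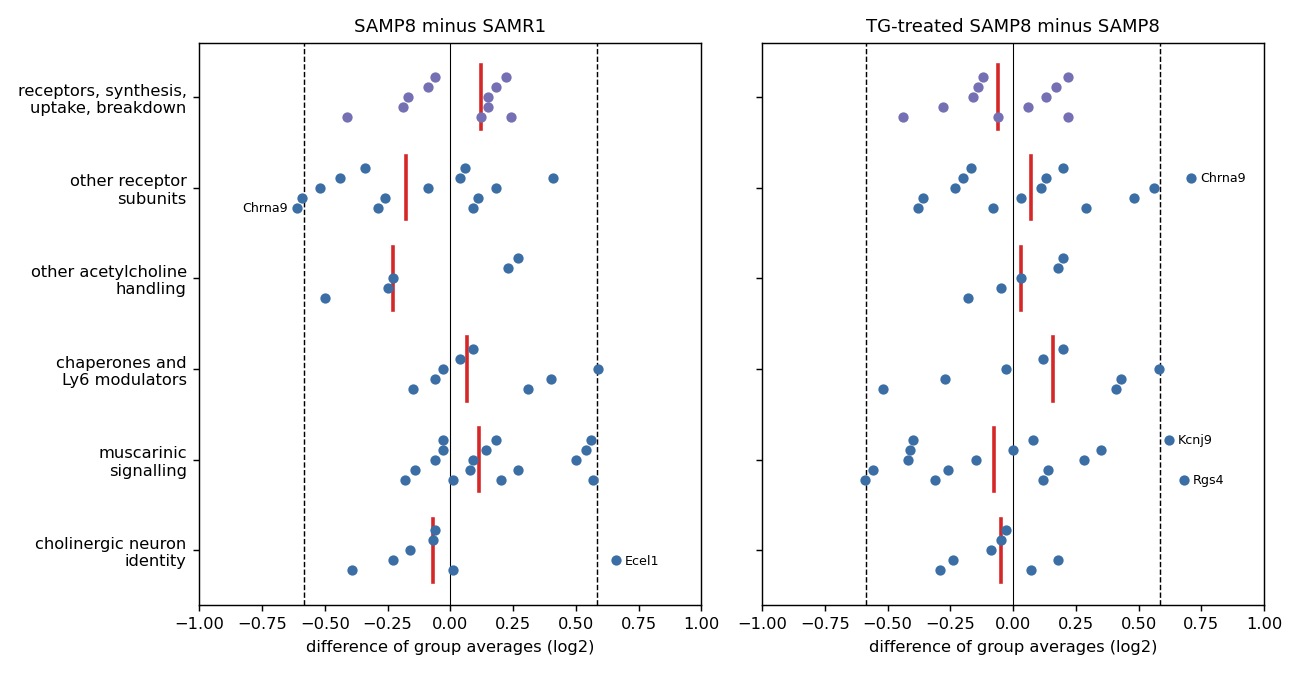
Difference of 2 group averages in log2 signal (horizontal axis) between the strains (left) and after TG (right) for the 10 cholinergic genes (top row, 11 points) and for the 5 other lists of the pathway. Each point is a probe set, red bars are medians, dashed lines mark 1.5-fold and genes with a difference over 0.6 in size are named. The top row holds no point past the lines, and Rgs4 and Chrna9 lie furthest out after TG.

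Genes that mark cholinergic neurons themselves, whose cell bodies are few in the hippocampus, were set beside Chat and Slc5a7. Of 7 such genes, 1 passed the limit between the strains and 0 did after TG, against 11.1% and 8.21% of all probe sets. The gene that passed was Ecel1, an endopeptidase-like protein, with averages of 5.09 in SAMR1, 5.75 in untreated SAMP8 and 5.51 after TG. Ngfr, a neurotrophin receptor of basal forebrain cholinergic neurons, was lower in SAMP8, at 5.53 against 5.92 in SAMR1. The median of the list was -0.07 between the strains and -0.05 after TG.

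Markers of hippocampal neurons were compared between the groups, which cannot test the tissue label that all 3 groups share. Of 7 markers of hippocampal neurons, 6 were higher in SAMP8 than in SAMR1, with a median difference of 0.31 in log2 signal, and 3 were higher after TG, with a median of -0.17. Prox1, a dentate granule cell gene, averaged 11.26 in SAMR1, 11.85 in untreated SAMP8 and 11.00 after TG. It passed 1.5-fold after TG, while its strain difference of 0.59 lies within the rounding of the limit. Spink8, a marker of pyramidal cells, was 2.46-fold higher in SAMP8 than in SAMR1. Neurod6, a pyramidal neuron gene, lay between 14.85 and 14.88 in all groups.

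Markers of neighbouring tissue differed between the groups as well. They are to be read against the 11.1% of all probe sets past 1.5-fold between the strains and the 8.21% after TG. All 6 thalamic markers were higher in SAMP8 than in SAMR1, 3 of them by over 1.5-fold, and their median difference was 0.51. After TG the median was 0.02 with 3 of 6 higher, and only Prkcd passed the limit, at -1.50. The log2 of the summed thalamic signal was 11.19 in SAMR1, 11.49 in untreated SAMP8 and 10.59 after TG, where the drop is that of Prkcd, the brightest of the 6. Of 8 meningeal markers, 3 were over 1.5-fold higher in SAMP8 than in SAMR1 and 5 were over 1.5-fold lower after TG. The log2 of their summed signal was 11.12 in both untreated groups and 10.21 after TG. The equal sums hide opposite strain differences, from -0.51 for Dcn, the brightest, to 1.58 for Igf2, with 5 higher, 2 lower and 1 equal in SAMP8. The 7 choroid plexus markers were divided. Between the strains 3 were higher and 4 lower in SAMP8, from -0.84 for Kcne2 to 0.88 for Ttr, and after TG 3 were higher and 4 lower, from -0.79 for Kl to 0.72 for Ttr. Their summed signals of 9.21, 9.84 and 10.32 follow Ttr, the brightest. The medial habenula, a dense source of Chat, Slc5a7, Chrna3 and Chrnb4 RNA, had none of its 4 markers past the limit and summed signals of 6.65, 6.81 and 6.84. All 4 were higher in SAMP8 than in SAMR1, by 0.08 to 0.33 in log2 signal, and after TG 2 were higher and 2 lower. The striatum, whose interneurons also express Chat, had 0 of 8 past the limit between the strains and 1 of 8 after TG, with summed signals of 12.56, 12.43 and 12.50.

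Cell type markers also differed with the strain. All 4 astrocyte markers were higher in SAMP8 than in SAMR1, of which Gfap was 1.93-fold and Slc1a3 was 1.54-fold higher, and the log2 of their summed signal was 14.42 in SAMR1, 14.66 in untreated SAMP8 and 14.55 after TG. Among 4 microglial markers P2ry12 was 1.82-fold higher in SAMP8, while 2 of the 4 were lower, with summed signals of 11.58, 12.27 and 11.96. Among 4 endothelial markers Flt1 was 1.58-fold higher in SAMP8, and all 4 were lower after TG by less than the limit, with summed signals of 9.28, 9.83 and 9.60. Of 4 oligodendrocyte markers, Mag was 1.64-fold higher after TG, with summed signals of 18.88, 18.73 and 18.94. The part of these tissues and cell types in the cholinergic values was not tested.

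Receptor families for other transmitters were set beside the cholinergic genes. The 19 probe sets of GABA-A receptor subunits had a median difference of 0.08 between the strains and -0.25 after TG, with 2 and 3 past 1.5-fold. The 19 of ionotropic glutamate receptors had 0.08 and -0.16, with 0 and 1 past the limit. The 7 metabotropic glutamate receptors had 0.11 and 0.05, again with 0 and 1. The 28 monoamine receptors had 0.07 and -0.05, with 1 and 4. Of all probe sets, 11.1% passed the limit between the strains and 8.21% after TG. The difference between these families and the cholinergic genes was not tested, since no replicate values were at hand.

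The probe sets closest to the pattern of Chrna7 were sought among 10640 of at least median signal, by the larger of the distances between their 2 main log2 differences. Hnrnpf, an RNA-binding splicing factor, averaged 12.07 in SAMR1, 12.31 in untreated SAMP8 and 11.87 after TG. Ralgps2, an exchange factor for Ral GTPases, averaged 11.51, 11.75 and 11.31. Both matched Chrna7 to the second decimal. Aph1b, a subunit of γ-secretase, averaged 8.26, 8.51 and 8.08 and was 0.01 away, one of 9 probe sets at that distance or closer. In all, 362 of the 10640 lay within 0.1 of Chrna7, so the pattern was not particular to it.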

How the data were processed

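RNA from hippocampus was measured on Clariom S Mouse arrays, 3 per group. The authors normalized the array intensities by signal space transformation with robust multichip averaging (SST-RMA) in the Transcriptome Analysis Console and deposited, for each of 2 comparisons, the group averages as log2 signal. The same tables hold the authors' fold changes, p-values and false discovery rates, which were not used. Groups followed the sample records. The study states that 3 hippocampal samples of each group were picked at random for the arrays. Whether the 3 arrays of a group came from separate mice was not stated in the records, and the series text speaks of duplicate samples. A stray description of a macrophage line on each record was not used.

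Probe sets with exactly 1 matching symbol were taken (21367 of 22206 have 1 symbol, 836 several and 3 none). Differences of averages were computed over all probe sets in Python 3.11.15 with pandas 2.3.3 and numpy 2.4.6. Without replicate values no test was run, and a fold limit of 1.5 was used instead. That step was tested on simulated data. Coordinates are those of the gene of that symbol in RefSeq GRCm38.p6, the mm10 build that the file headers name. Pathway genes were named where they passed the limit between any 2 averages, others that were named having been picked after their values were seen. Some pathway genes are not reported here, though the counts include them. The genes and lists were chosen with earlier results of these data known. Tmem35a was matched by its older symbol Tmem35, and Zbtb20, found only on a probe set of several genes, was left out of the hippocampal markers. The 8 alternatives were 3 other fold limits, 2 scalings, a filter on low signal, a mean over all probe sets of a gene and the SAMP8 average of the other table.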

Additional observations from a re-analysis of the deposited data

How the results depend on the processing

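With the limit at 1.1-fold, 8 of the 11 probe sets passed it between the strains, 7 after TG and 5 between TG-treated SAMP8 and SAMR1, and at 1.2-fold 1, 2 and 3 did. At 2-fold, after centring each average on its median, after quantile normalization, without the 25% of probe sets of lowest signal, with gene means and with the SAMP8 average of the other table the count was 0 in each comparison, as in the main setting. Quantile normalization moved the median strain difference of the 11 to -0.01. It moved 7 of 33 differences by more than a set tolerance of 0.1 on the log2 scale, by 0.16 at most. That tolerance is no estimate of the spread between arrays, which is not known here. Quantile normalization changed the sign of 3: Chrm1 between the strains (-0.01), Chrm4 (-0.04) and Chat (0.01) between TG-treated SAMP8 and SAMR1. Averaging the 2 Ache probe sets turned the placed one's value after TG to -0.06, and median centring turned Chrm1 between TG-treated SAMP8 and SAMR1 to 0.01. In the muscarinic signalling list, 0 genes passed 1.5-fold between the strains as deposited and 3 did after median centring. No paired analysis was possible because only group averages were used, which carry no replicate numbers. No array could be left out for the same reason. The precision is limited by the 3 arrays per group and, for Chat, Slc5a7 and Slc18a3, by signal near the bottom of the scale.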
